A study of Homo sapiens with 4 samples.

Results

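The intergenic MEIS sites are the reproducible binding sites of transcription factors MEIS1 and MEIS2 that lay outside protein-coding genes and away from their promoters. A site was counted here when its summit, the base of highest signal, lay outside every protein-coding gene body and more than 20 kb and at most 500 kb from the nearest canonical transcription start site (TSS) of a protein-coding gene (GENCODE 44 on GRCh37). By this rule 1695 of 5169 sites were intergenic (32.79%, 95% Wilson interval 31.53 to 34.08). The rule used position alone, so strength and sequence had no part in the choice.

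The cells were human neural stem cells (hNSC) without any treatment, and binding was read by ChIP-seq, the sequencing of DNA that is pulled down with an antibody from fixed chromatin. The hNSC were a commercial culture grown without serum on a Geltrex coating. There were 2 MEIS ChIP samples and 2 Input samples, and Input, which is chromatin sheared in the same way without immunoprecipitation, entered the values only through peak calling. No genotype or treatment differed between the samples. The ChIP used an antibody against MEIS1/2A together with an antibody against MEIS1, so a site does not say which protein was bound, and the study's methods name 2 batches of these cells handled side by side. The labels do not tie the replicates to these batches, so the spread between them may be partly technical. Read depth per replicate was not given in the sources used here, and no RNA was measured in these samples, so the cell type could not be checked against marker genes.

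MEIS proteins belong to the TALE homeodomain family and bind the core TGACAG. They often bind together with PBX proteins, their TALE relatives, and then read a composite of TGA, any base and TGACAG. In the developing nervous system MEIS factors mark progenitors and young neurons. Sites between genes are where many distal enhancers lie, and such enhancers can act over long stretches of DNA on a promoter that is not always the nearest, so every gene named here is the nearest gene and not a target that was shown.

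The sequences at the strongest intergenic sites are printed because they show what the antibodies enriched most. Each shows the plus strand of GRCh37, with 50 bases on either side of a centre, which is the TGACAG nearest the summit where one lay within 100 bp and the summit otherwise. Sites are named by the gene with the nearest TSS. Capitals mark TGACAG or its reverse complement CTGTCA, and at NFE2L3 the whole composite.
NFE2L3 (chr7:25792838-25792938): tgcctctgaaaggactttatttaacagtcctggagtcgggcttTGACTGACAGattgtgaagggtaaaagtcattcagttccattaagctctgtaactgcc
NR2F2 (chr15:97080499-97080599): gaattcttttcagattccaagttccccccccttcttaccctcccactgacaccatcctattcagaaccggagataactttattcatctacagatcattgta
G6PC1 (chr17:41077141-41077241): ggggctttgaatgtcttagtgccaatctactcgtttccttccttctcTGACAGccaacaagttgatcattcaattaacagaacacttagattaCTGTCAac
RGMA (chr15:94034334-94034434): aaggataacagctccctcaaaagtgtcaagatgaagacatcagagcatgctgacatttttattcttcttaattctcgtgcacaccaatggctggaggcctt
EPHA3 (chr3:88961487-88961587): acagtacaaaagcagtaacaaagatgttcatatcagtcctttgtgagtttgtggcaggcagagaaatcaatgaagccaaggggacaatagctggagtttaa
ACVR2A (chr2:148208497-148208597): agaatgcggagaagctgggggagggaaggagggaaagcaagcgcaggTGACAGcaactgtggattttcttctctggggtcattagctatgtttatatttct
VRK2 (chr2:57968325-57968425): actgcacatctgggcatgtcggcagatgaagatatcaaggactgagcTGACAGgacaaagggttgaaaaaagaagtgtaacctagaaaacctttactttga
EPHA7 (chr6:93814101-93814201): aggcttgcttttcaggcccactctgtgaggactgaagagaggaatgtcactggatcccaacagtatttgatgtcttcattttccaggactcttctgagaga

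The cores at VRK2 and G6PC1 lay 6 and 2 bp from the summit, and G6PC1 held another core on the other strand within the printed stretch. At NFE2L3 the core lay 49 bp from the summit and at ACVR2A 100 bp. The nearest TGACAG at EPHA3 was 218 bp away, outside the printed bases. At NR2F2, RGMA and EPHA7 no TGACAG was found on either strand in the 500 bp around the summit, although these ranked 2, 4 and 8 among the intergenic sites. The printed bases at NR2F2 and RGMA hold the shorter run TGACA, and those at EPHA7 its reverse complement TGTCA, each near the centre.

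The PBX-MEIS composite was present at 109 intergenic sites (6.431%). Examples, ranked 1, 10, 57, 75, 76 and 88 among intergenic sites, were nearest to NFE2L3, TXNL1, THBS2, IRX4, CDCA7 and DBX1. They are not a full ranking of the 109. At TXNL1 the composite lay 230 bp from the summit, so it is not printed. The other sequences are shown with the composite in capitals, reading on the minus strand at CDCA7 and DBX1, and DBX1 held another TGACAG beside it.
THBS2 (chr6:169783250-169783350): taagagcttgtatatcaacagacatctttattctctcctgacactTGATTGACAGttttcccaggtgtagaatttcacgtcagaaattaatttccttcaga
IRX4 (chr5:2206551-2206651): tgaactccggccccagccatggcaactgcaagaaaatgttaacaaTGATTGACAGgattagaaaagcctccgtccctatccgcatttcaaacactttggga
CDCA7 (chr2:174471909-174472009): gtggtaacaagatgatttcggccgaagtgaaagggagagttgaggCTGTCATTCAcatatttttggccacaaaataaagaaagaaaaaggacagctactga
DBX1 (chr11:20280269-20280369): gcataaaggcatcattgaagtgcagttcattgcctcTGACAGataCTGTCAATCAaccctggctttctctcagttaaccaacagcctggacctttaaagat

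The composite lay 0 bp from the summit at IRX4, a homeobox gene of the Iroquois group. It lay 13 bp away at THBS2, which encodes a secreted matrix glycoprotein, and 18 bp away at DBX1, a homeobox gene of ventral neural tube progenitors. At CDCA7 it lay 66 bp away. The −log10 p, the peak caller's measure of enrichment over input, was 352.2 and 401.4 in replicates 1 and 2 at THBS2, 423.1 and 270.3 at IRX4, 268.4 and 395.5 at CDCA7, and 245.8 and 686 at DBX1. DBX1 had the widest gap between replicates of these 4, and the replicate with the higher value was replicate 2 at 3 of them.

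The 20 strongest intergenic sites were led by a site 399 kb upstream of NFE2L3, a basic leucine zipper factor of the NRF family. This site (chr7:25791931-25793750) reached 2230.8 and 2352.8 in −log10 p in replicates 1 and 2, with fold enrichment over input of 140.5 and 272.7. It ranked 4 among all reproducible sites and lay inside a long noncoding RNA (lncRNA) gene, ENSG00000287096. The next site was 206.6 kb downstream of NR2F2, an orphan nuclear receptor of the COUP-TF family, with a −log10 p of 1886.9 and 2000.6 (chr15:97079159-97081876). The third lay 24.37 kb from the TSS of G6PC1, the catalytic subunit of glucose-6-phosphatase, and its −log10 p was 1680.6 and 1843.3 (chr17:41076625-41077852). At each of these 3 sites both replicates were far above the intergenic medians of 34.64 and 41.92, and replicate 2 was the higher.

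Genes of guidance and of receptors at the cell membrane followed. RGMA, a repulsive guidance molecule, had a site 401.9 kb upstream with a −log10 p of 1318.3 and 1388.9 (chr15:94033794-94035293). EPHA3, an Eph receptor, had a site 195.2 kb upstream with 1326.2 and 1300.8 (chr3:88959563-88962152). The site at ACVR2A, an activin receptor, was 394.2 kb upstream with 1279.4 and 1218.5 (chr2:148206856-148209141). In −log10 p the replicates differed little at these sites, and they shared the summit to 0 bp at all 3. Fold enrichment was higher in replicate 2, with 83.42 and 161.1 at RGMA, 83.81 and 160.4 at EPHA3, and 72.1 and 128.8 at ACVR2A.

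VRK2, a serine/threonine kinase gene, had a site 305.6 kb upstream with a −log10 p of 1190.7 and 1383.4 (chr2:57967667-57968937). Another Eph receptor gene, EPHA7, had a site 315.1 kb from its TSS on the downstream side with 1140.6 and 1028.9 (chr6:93813345-93815073). ERBB4, a receptor for neuregulins, had a site 171.1 kb upstream with 1137.8 and 1006.6 (chr2:213573459-213575598). In −log10 p, EPHA7 and ERBB4 were lower in replicate 2, unlike VRK2. Fold enrichment was higher in replicate 2 at each of these sites, with 62.45 and 135.9 at EPHA7, 73.78 and 126 at ERBB4, and 68.94 and 175.7 at VRK2. The site nearest to TXNL1, 449.5 kb from its TSS, had 998.5 and 1276.1 and lay inside LINC03069, with TCF4 as the flanking gene on the other side.

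The remaining 10 of the 20 were nearest to NOVA1 and MBNL2, which encode splicing factors of neurons and other cells, and to GBA3, RBM26, MDFIC, PLK2, PABPC4L, ARSJ, IFNGR1 and ADAMTS3. Their −log10 p in the merged list ran from 992.7 at NOVA1 to 756.8 at ADAMTS3. GBA3 had the widest difference between replicates, with 917.9 in replicate 1 and 1513.8 in replicate 2, and fold enrichments of 52.91 and 192.9. MBNL2 had 974.9 and 1311.4, and its replicate summits stood 75 bp apart, the only pair of the 20 beyond 50 bp. The gene with the nearest TSS was often not the only candidate beside these sites: the site nearest to MDFIC had FOXP2 as its other neighbour, 162.9 kb away, and the site nearest to IFNGR1 had OLIG3, 152 kb away.

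Of these 20 sites, 13 held TGACAG in the 500 bp window, 12 lay upstream of the nearest TSS, 5 lay inside a lncRNA gene and 0 had another reproducible site within 10 kb. Among the 100 strongest, 64 held TGACAG and 9 had such a neighbour. Over all intergenic sites the shares were 56.64% and 11.27%.

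**Figure D1:**
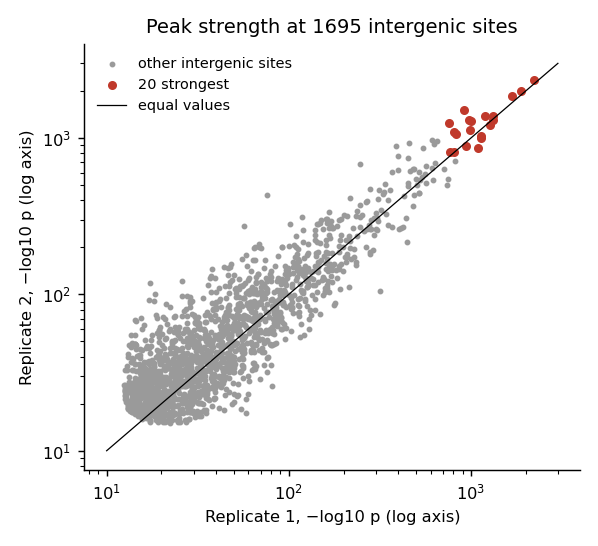
Peak strength of each of the 1695 intergenic sites in replicate 1 (horizontal) and replicate 2 (vertical), as −log10 p on log axes, with the 20 strongest sites in red and a line of equal values. The points follow the line, most of them above it (1111 sites, 65.55%), and the 20 strongest lie at the upper end in both replicates. They were chosen by the merged −log10 p, the lower replicate value at 99.53% of sites, so this place follows from the choice.

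All 1695 intergenic sites had a peak in each replicate, which a list of reproducible sites requires. Replicate 1 gave −log10 p values of 12.51 to 2230.8 with a median of 34.64, and replicate 2 values of 15.12 to 2352.8 with a median of 41.92. The median fold enrichment was 6.46 in replicate 1 and 11.85 in replicate 2. Fold enrichment was higher in replicate 2 at 1666 sites (98.29%), and the median ratio of replicate 2 to replicate 1 was 1.804, beside 1.796 at the other reproducible sites. The shift between replicates was therefore of nearly the same size inside and outside the class. The rank correlation of −log10 p between replicates was 0.7927 over the 1695 sites and 0.7713 over the 3474 others. It is a description, since all points come from the same pair of libraries and the list was chosen for agreement between them.

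The summits of the replicates lay within 50 bp of each other at 1430 intergenic sites (84.37%) and at 84.54% of the other sites, and the median gap was 10 bp against 11 bp (odds ratio 0.987, 95% interval 0.841 to 1.158, Fisher's exact test, two-sided, p = 0.8701, adjusted over 6 tests 0.8701). Sites are not replicates of a culture, and such p-values weigh sites against sites in these libraries. A stricter irreproducible discovery rate (IDR) of 0.001 or less was met by 1045 intergenic sites (61.65%) and by 59.84% of the others. The interval of the summit odds ratio takes in differences of either sign, and the IDR shares were not tested.

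The strength of intergenic sites was compared with that of the other sites by counting those above the median −log10 p of the whole list. There were 866 such intergenic sites (51.09%, 95% interval 48.71 to 53.47) against 49.4% of the others, and the odds ratio of 1.07 (95% interval 0.953 to 1.202) did not pass the test (Fisher's exact test, p = 0.2602, adjusted 0.3904). The strongest 10% of the list took in 173 intergenic sites (10.21%) and 9.902% of the others. By class, the median −log10 p of the merged list was 30.1 at intergenic sites, 29.49 at intronic sites over 20 kb from a TSS, 33.16 at gene desert sites over 500 kb from a TSS, 26.67 at sites 1 to 20 kb away and 24.19 at promoters, meaning within 1 kb. Promoters were the weakest of these classes, with 39.58% above the list median (95% interval 33.61 to 45.89).

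Whether the reproducible list was richer in intergenic positions than the peaks that failed to enter it was asked in each replicate. In replicate 1, 32.82% of the 5183 peaks that overlapped a reproducible site were intergenic by the same rule, against 29.66% of the 31613 other peaks (odds ratio 1.159, 95% interval 1.088 to 1.234, Fisher's exact test, p = 5.147e-06, adjusted over 6 tests 3.088e-05). In replicate 2 the shares were 32.83% of 5182 and 31.3% of 42267 (odds ratio 1.073, 95% interval 1.009 to 1.141, Fisher's exact test, p = 0.0265, adjusted 0.07949), which did not pass after adjustment. The direction was the same in both replicates. Whether the replicates differed from each other was not tested.

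Intergenic territory made up 35.42% of the sequenced bases of chromosomes 1 to 22 and X (1004.4 Mb), so the 32.79% of sites there came to 1.688 sites per Mb. This was below the density over the whole genome, 1.823 per Mb, and below that of distant intronic sequence, 2.211 per Mb, and above that of gene deserts, 1.528 per Mb. Promoters, with 6.485 sites per Mb, had the highest density of the 5 classes. Chromosomes varied: chromosome 13 had 103 intergenic sites at 2.8 per Mb, chromosome 2 had 206 at 2.381, and chromosome 5 had 164 at 2.31. Chromosome 19 had 7 at 0.6712 and chromosome X had 43 at 0.6055. As a share of all reproducible sites on the chromosome these came to 44.4%, 42.56%, 38.77%, 10.45% and 45.74% in the same order. Chromosome X had only 94 reproducible sites of any class.

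Within the class, the distance to the nearest TSS ran from 20.06 to 499.7 kb with a median of 145.2 kb and quartiles of 67.86 and 281.4 kb. From 20 to 50 kb there were 302 sites at 1.436 per Mb of intergenic sequence in that band, from 50 to 100 kb 321 sites at 1.551, from 100 to 200 kb 436 at 1.795, and from 200 to 500 kb 636 at 1.847. Intergenic sites were thus not concentrated at the near edge of the class. Their median −log10 p was 31.6, 28.95, 29.31 and 30.35 in the same order, which changed little beside lower quartiles of 18.96 to 20.13 and upper quartiles of 57.46 to 64.01.

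The share of sites with the core motif was highest in the nearest band and lowest in the farthest, without a steady order between. TGACAG was present at 61.92% of sites from 20 to 50 kb (95% interval 56.33 to 67.21), at 56.39% and 57.34% in the middle bands, and at 53.77% from 200 to 500 kb (95% interval 49.89 to 57.61). The mean GC content of the 500 bp windows fell from 44.81% in the nearest band through 43.34% and 43.12% to 41.08% in the farthest. The intervals of the nearest and the farthest band overlap. Neither a trend with distance nor the part of GC content in these shares was tested.

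**Figure D2:**
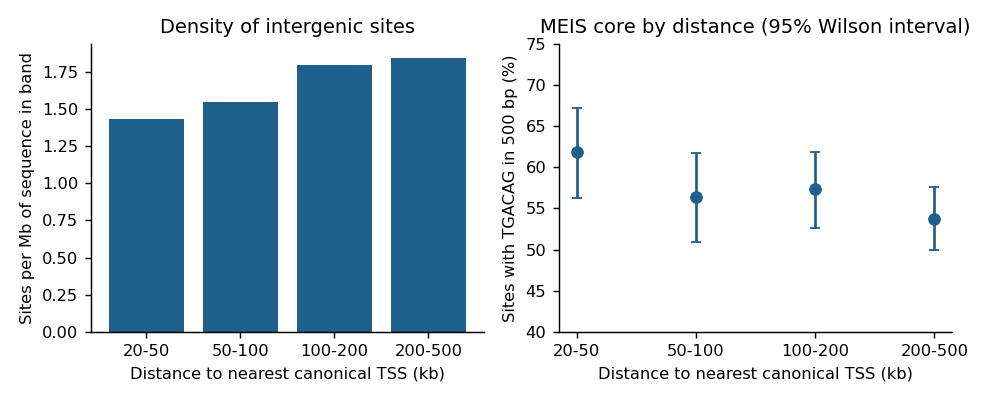
Intergenic sites by distance to the nearest canonical TSS. The left bars give the number of sites per Mb of intergenic sequence in each band, rising from 1.436 to 1.847, and the right points give the share of sites with TGACAG in 500 bp with 95% Wilson intervals, from 61.92% to 53.77%; the right axis starts at 40%.

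At the edges of the rule, the sites just inside the near limit were 20.06 kb from ZSCAN20, with a −log10 p of 26.32 and 31.6 in the replicates, and 20.06 kb from RTL10, with 37.35 and 46.78. Just outside it lay a site 19.98 kb from MACC1, with 29.05 and 21.32, and a site 19.95 kb from GYG1, with 14.77 and 44.21. Inside the far limit were sites at COG6 (499.73 kb, 62.47 and 69.45) and ACTRT1 (499.65 kb, 37.56 and 36.11), and beyond it sites at STIM2 (21.19 and 25.27) and CRIM1 (500.04 kb, 140.2 and 150).

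Of the intergenic sites, 992 (58.53%, 95% interval 56.16 to 60.85) lay upstream of the nearest TSS, beside 58.97% of intergenic territory sampled at every 1 kb. The upstream majority was thus that of the territory itself. A lncRNA gene body held 636 intergenic sites (37.52%, 95% interval 35.25 to 39.85) and 30.1% of the territory, and 83 sites (4.897%, 95% interval 3.968 to 6.03) lay within 1 kb of a lncRNA TSS beside 2.14% of the territory. Other classes also exceeded their sequence. Within 1 kb of a lncRNA TSS lay 1.549% of distant intronic sites beside 0.8711% of that sequence, and 2.096% of desert sites beside 1.031%. In lncRNA bodies lay 9.148% of distant intronic sites beside 7.826%, and 28.93% of desert sites beside 27.38%. No test was made of any of these shares against the territory. Named cases were the site in SOX2-OT 41.77 kb from the TSS of SOX2, and the site in NR2F1-AS1 175.5 kb from NR2F1.

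TGACAG was found in the 500 bp around the summit at 960 intergenic sites (56.64%, 95% interval 54.27 to 58.98) and at 2052 other sites (59.07%). The odds ratio was 0.905 (95% interval 0.805 to 1.018, Fisher's exact test, p = 0.09852, adjusted over 6 tests 0.197), so a lower share at intergenic sites was not shown. By class the share was 59.49% at distant intronic sites, 56.39% in gene deserts, 57.31% at 1 to 20 kb and 65.83% at promoters. Intergenic sites with 0, 1, 2 and at least 3 copies numbered 735, 640, 252 and 68, and their median −log10 p was 29.44, 28.79, 34.31 and 45.83. The median was no higher with 1 copy than with 0, and it was higher at the 252 and 68 sites with more copies, a description with no test.

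Where the core occurred it was close to the summit. Of 1392 occurrences at intergenic sites, 736 had their centre within 50 bp (52.87%, 95% interval 50.25 to 55.48), and the median distance was 44 bp. The 20 bp bin at the summit held 12.01 occurrences per 1000 sites per bp, against 0.5605 in the outermost bin on the left and 0.7965 in that on the right. At the other sites 56.21% of occurrences were within 50 bp (95% interval 54.39 to 58), and at promoters 69.34% (95% interval 62.83 to 75.16). Distant intronic sites, at 53.85%, were the class nearest to the intergenic one in this measure.

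**Figure D3:**
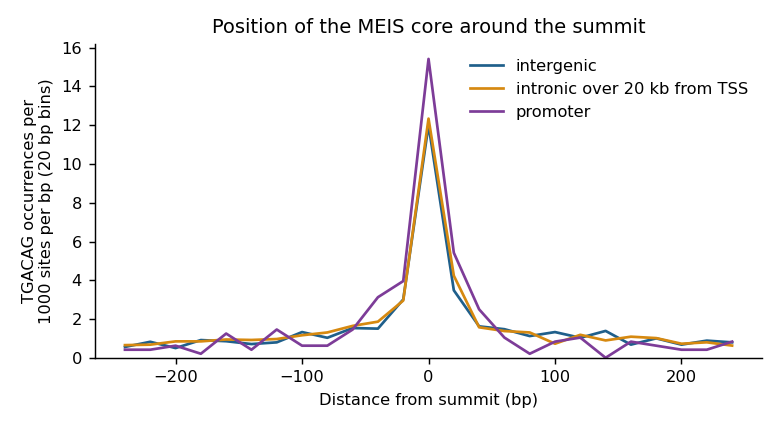
Occurrences of TGACAG on either strand by distance from the summit in bp, per 1000 sites per bp in bins of 20 bp, for intergenic sites, intronic sites over 20 kb from a TSS, and promoters. Every line has its peak at the summit; the intergenic line reaches 12.01 and overlies the intronic line over most of the window, and the promoter line is higher at the centre.

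Intergenic sites and the other sites were compared for 13 short consensuses of neural and general factors, each searched on both strands in the same 500 bp, and 2 of the 13 passed the test after Benjamini-Hochberg adjustment. GGAATG, the motif of TEAD factors, which act with YAP in growth control, was present at 692 intergenic sites (40.83%, 95% interval 38.51 to 43.18) against 36.85% of the others (odds ratio 1.183, 95% interval 1.05 to 1.332, Fisher's exact test, adjusted p = 0.03933). GGGCGG, the GC box bound by SP factors at promoters, was rarer, at 126 sites (7.434%) against 10.88% (odds ratio 0.658, 95% interval 0.533 to 0.812, Fisher's exact test, adjusted p = 0.000999). By class, the TEAD letters were present at 40.52% of sites 1 to 20 kb from a TSS, 37.12% of distant intronic sites, 36.48% of desert sites and 24.58% of promoter sites, so sites 1 to 20 kb away had nearly the intergenic share. The GC box was present at 63.33% of promoter sites, 6.486% of distant intronic sites and 2.306% of desert sites. By the same exact test against distant intronic sites alone, the GC box odds ratio was 1.158 (adjusted p = 0.842) and the TEAD odds ratio 1.168 (adjusted p = 0.2628), so neither call held there. Against desert sites alone the GC box was the more frequent at intergenic sites (odds ratio 3.402, adjusted p by the exact test 0.0001948). The TEAD call held in 1 of 9 alternatives, the strongest peaks of replicate 1 alone (odds ratio 1.187, adjusted p by the exact test 0.03184). It was lost within strata of GC content (odds ratio 1.165, Cochran-Mantel-Haenszel test, adjusted p = 0.1595) and among the strongest peaks of replicate 2 alone (odds ratio 1.104, adjusted p by the exact test 0.4545).

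The composite of TGA, any base and TGACAG was present at 6.431% of intergenic sites and 8.089% of the others (odds ratio 0.781, Fisher's exact test, p = 0.03781, adjusted over 13 consensuses 0.1638), and at 21.25% of promoter sites. AACAAT, read by SOX factors, stood at 669 intergenic sites (39.47%) and 37.62% of the others. AGGTCA, read by NR2F and other nuclear receptors, stood at 647 (38.17%) and 36.61%, and the E-box CAGCTG of basic helix-loop-helix factors at 572 (33.75%) and 34.46%. The AP-1 motif TGANTCA was present at 20.06% against 18.71%, and TAATTA, read by LIM and other homeodomain factors, at 18.7% against 17.99%. TGTTTAC of FOX factors, CCACNAGG of CTCF and ATGCAAAT of POU factors were each under 9% in both sets, and the full NFI palindrome occurred at 1 intergenic site. None of these passed the test. A match is a description of letters in the window, not a bound site.

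**Figure D4:**
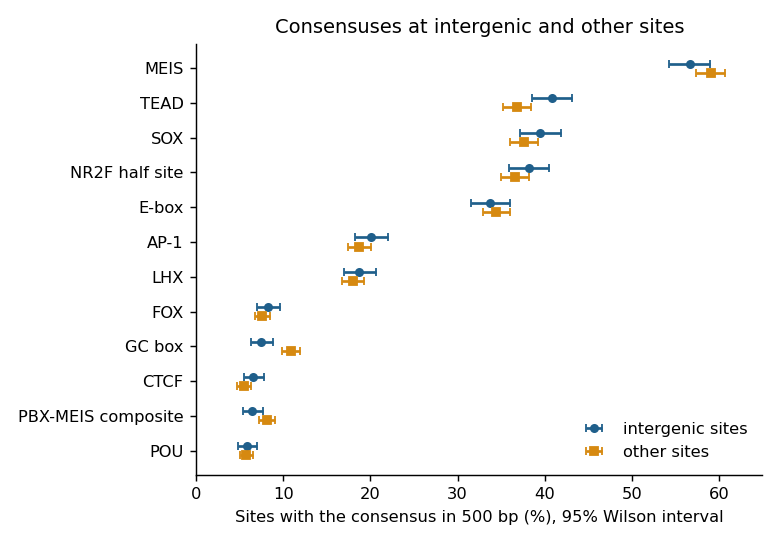
Share of sites with each consensus in the 500 bp around the summit, for intergenic sites (circles) and the other reproducible sites (squares), with 95% Wilson intervals. The MEIS core leads in both sets, and TEAD (40.83% against 36.85%) and the GC box (7.434% against 10.88%) are the pairs that passed the test; the NFI palindrome, at 1 intergenic site, is left out.

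The other consensuses were also counted at intergenic sites with and without TGACAG. TEAD letters were present at 38.96% of the sites with the core (95% interval 35.92 to 42.08) and at 43.27% of those without it (39.73 to 46.87). SOX letters were present at 37.6% and 41.9%, and the E-box at 35.94% and 30.88%. The intervals of each pair overlap, and the differences were not tested.

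All hexamers, strands merged, were then compared in the same way. Intergenic sites had 4 hexamers more often than the other sites (0.192% of those tested) and 33 less often (1.59%) at an adjusted p under the threshold. The 4 were AAATTG (34.99% against 29.59%, Fisher's exact test, adjusted p = 0.01068), CCATGA (26.73% against 21.99%), AAGGGA (40.18% against 34.92%) and AATAGC (27.49% against 23.11%), none with a CpG. All 33 less frequent hexamers contained a CpG, led by CCGCGC at 1.357% against 4.433% (Fisher's exact test, adjusted p = 2.895e-06). Without promoters among the other sites 0 hexamers passed Fisher's exact test after adjustment, with 146 at an unadjusted p under 0.05, and against distant intronic sites 0 passed, with 150. TGACAG itself gave 56.64% against 59.07% (Fisher's exact test, adjusted p = 0.4621).

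Another reproducible site lay within 10 kb of 191 intergenic sites (11.27%, 95% interval 9.85 to 12.86), against 11.57% of the others (odds ratio 0.971, 95% interval 0.808 to 1.165, Fisher's exact test, p = 0.7804, adjusted 0.8701). Neighbouring sites share a region and are not independent. These 191 fell into 97 chains of neighbours, 3 of them with 3 sites and none longer. The tightest chain of 3 sites lay 275.3 to 283.3 kb from the TSS of CDC5L on the downstream side, all of them intergenic, in 8.039 kb of chromosome 6. Their −log10 p was 155.7 and 125.6 in replicates 1 and 2 at the first, 54.48 and 45.95 at the middle one, and 66.44 and 118.1 at the last. Upstream of ZNF608, 3 sites spanned 16.5 kb, and one of these was strong in replicate 2 (68.82) and weak in replicate 1 (14.39).

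A nearest gene was assigned to every intergenic site, which gave 1021 genes. Of these, 655 had 1 site, 325 had 2 to 4 and 41 had at least 5, and those 41 took 258 sites (15.22%). ZNF608, a zinc finger gene, had 19, of 30 reproducible sites of any class nearest to it. They lay 60.02 to 494.1 kb from its TSS, 11 of them upstream, and 10 held TGACAG. Replicate 1 put them between 14.39 and 162.5 in −log10 p, and replicate 2 between 22.17 and 301. The strongest, 135.9 kb upstream (chr5:124217696-124218805), had 162.5 and 287.1, so the high count at this gene came without any site of the strongest rank.

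NR2F2 followed with 12 intergenic sites, 6 on each side, of 26 in all. Besides the site described above, a site 31.53 kb downstream of its TSS had a −log10 p of 624.4 and 909.9, and a site 263.5 kb downstream had 234.5 and 317.7. Of the 6 upstream sites, the highest in replicate 1, 484.7 kb away, had 53.06 and 56.8, and the highest in replicate 2, 243.1 kb away, had 29.55 and 75.36. The strongest sites of this gene were thus on the downstream side.

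SPRY1, a feedback inhibitor of FGF signalling, had 10 sites, of which 8 lay downstream. The strongest had a −log10 p of 266.2 and 389.4 and lay 390.8 kb from the TSS inside LINC01091, with a weaker neighbour (18.91 and 43.83) 1.917 kb from it. A site 67.25 kb downstream had 302.6 and 260.1. EFNB2, which encodes an ephrin ligand of Eph receptors, had 8 sites, with 0 upstream. The strongest of them (chr13:107119120-107121926), 67.89 kb from the TSS, had 449.2 and 742.5, and the weakest 22.72 and 32.28.

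NUAK1, an AMPK-related kinase gene, had 9 sites in 0.362 Mb of intergenic territory, or 24.86 per Mb, the highest density of the 10 genes nearest to the most sites. They all lay 93.94 to 398.5 kb downstream, and 3 held TGACAG. Replicate 1 put them between 22.42 and 89.9 in −log10 p and replicate 2 between 30.04 and 201.2, so this was a dense run of moderate sites. ZNF608 came to 21.81 per Mb and RBMS1, an RNA-binding protein gene, to 22.29 with 7 sites. The mean over the class was 1.688.

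TRIB2, a pseudokinase gene, had 8 sites, none above 54.07 in replicate 1. TBL1XR1, which encodes a part of corepressor complexes, had 7, all upstream, the strongest with 333.2 and 452.6. SOX11, a SOX factor of young neurons, had 7 sites from 282.3 to 449.3 kb away, 5 of them with TGACAG, and 0 reproducible sites of other classes. CDH6, a classical cadherin, had 7, all upstream, the strongest only 31.7 kb from its TSS with 122.2 and 93.07. Sites of these genes overlapped in strength and no order among them is drawn.

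**Figure D5:**
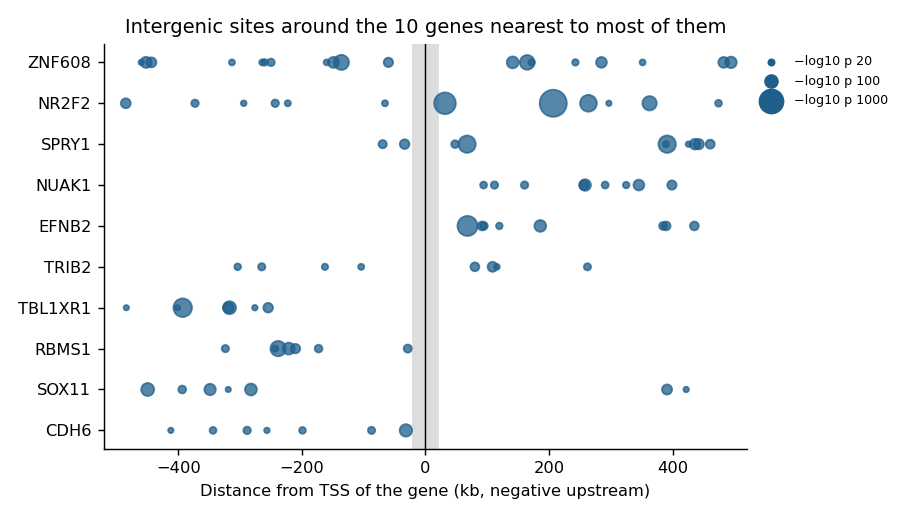
Intergenic sites of the 10 genes that were nearest to the most of them, by distance from the TSS in kb (negative upstream), with the area of each point growing with the −log10 p of the merged list and the grey strip marking the 20 kb on either side that the rule leaves out. NUAK1 and EFNB2 have sites downstream only, TBL1XR1, RBMS1 and CDH6 upstream only, and the large points stand downstream of NR2F2.

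Genes of 12 lists of neural regulators and signalling pathways were the nearest gene of 232 intergenic sites (13.69%). Of the 324 listed genes 93 had at least 1. Their territory held 3.083 intergenic sites per Mb, against 1.575 per Mb for all other genes. The lists were made with earlier results of these data known, so the values describe them and no test was made.

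Among transcription factors, the SOX list had 24 sites at 8 of 14 genes (4.571 per Mb), and 17 of the 24 held TGACAG. After SOX11 came SOX2, the pluripotency and neural stem cell factor, with 5 sites, and SOX21 with 3. The strongest SOX2 site, 41.77 kb from the TSS, had a −log10 p of 283.7 and 300.1, and the strongest SOX21 site, 271.6 kb upstream, 187.8 and 203.5. The nuclear receptor list had 13 sites (3.933 per Mb), of which 12 belonged to NR2F2 and 1 to its relative NR2F1, with 22.99 and 27.21.

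The TALE and IRX list had 12 sites at 7 of 18 genes. IRX1 had 4, IRX4 2 and IRX3 2, all of them Iroquois genes that pattern neural tissue. The highest IRX4 site was the one printed above, and the highest IRX1 site, 276 kb downstream, had 97.61 and 126.9. In the homeodomain and PAX list 5 of 37 genes had 13 sites, led by the neural POU factors POU3F2 with 5, POU3F3 with 3 and POU3F1 with 3. At 1.977 per Mb this list was among the least dense.

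The basic helix-loop-helix, Notch and ID list had 18 sites at 10 of 35 genes. HES1, the Notch effector that holds back neuronal differentiation, had 4, the strongest 56.27 kb upstream with 307.4 and 405.8. OLIG1, an oligodendrocyte lineage factor, had 2 in 0.062 Mb, one of them with 280.8 and 471, and TCF4 had 2, the stronger with 106 and 150.6. The ZIC, GLI, NFI and FOX list had 14 sites at 8 of 22 genes, including 4 at ZIC4 and 2 at FOXB1, the highest of these 98.65 and 142.6 at ZIC4.

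Among signalling lists, growth factor signalling had 29 sites at 11 of 32 genes (3.783 per Mb). Besides SPRY1, its relative SPRY2 had 5, the strongest with 135.3 and 141.1, and ERBB4 had 3. Axon guidance had 42 sites at 14 of 45 genes (3.814 per Mb), and 18 of them (42.86%) held TGACAG. After EFNB2 came the guidance molecules RGMB with 6 sites, the strongest with 208.7 and 318.3, and RGMA with 5, all upstream, of which 1 held TGACAG. The Wnt list had 9 sites at 7 of 38 genes. Those included 2 upstream of WLS, which carries Wnt proteins to the cell surface, with 170.8 and 296.5 at the stronger, 2 at SFRP2 and 1 at FZD6, a Frizzled receptor gene.

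The adhesion list had the most sites, 48 at 18 of 46 genes, over the largest territory (18.13 Mb, 2.647 per Mb). They were led by cadherin genes, with 7 at CDH6, 7 at CDH7 and 5 at CDH2, the neural cadherin. The strongest CDH7 site had 88 and 89.5, and the strongest CDH2 site 66.08 and 129.1. The Hippo list had 6 sites at 2 of 16 genes: VGLL3, a TEAD cofactor, had 4, up to 482 and 369, and CCN2, a known TEAD target, had 2, both under 30 in each replicate. At that strongest VGLL3 site the replicate summits lay 1103 bp apart, so its values may come from different parts of a site 2874 bp wide.

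The restless legs list had 5 sites at 2 of 9 genes, DACH1 and MEIS1, and all 5 held TGACAG. DACH1, a transcriptional cofactor of the retinal determination network, had 4 intergenic sites within 500 kb of its body. That 467 kb from its TSS on the downstream side had a −log10 p of 159.4 and 223.3, and those 70.31, 195.6 and 332.1 kb upstream had 123.6 and 141.7, 151.7 and 124.2, and 26.89 and 27.73. Within 500 kb of MEIS1 itself 1 intergenic site was found, 195.2 kb upstream (chr2:66466551-66467865), with 64.28 and 90.83.

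At 3 other loci the site near the gene of interest had another gene nearer. Within 500 kb of the MEIS2 gene body there was 1 intergenic site, 692.7 kb from the MEIS2 TSS on the downstream side. That site had 27.41 and 30.31, and its nearest TSS was that of CDIN1. Near MDGA1, a synaptic adhesion gene, there was 1, 93.67 kb upstream of it and 28.18 kb from ZFAND3, with 26.98 and 32.65. Near NTNG1, which encodes the netrin G1 adhesion protein, there were 2, 387.7 and 272 kb upstream, with PRMT6 as the gene with the nearest TSS. The farther of these had 438.9 and 305.9 and held no TGACAG, and the nearer had 19.59 and 61.53 and did. The MEIS2 and MDGA1 sites were thus below the intergenic median in both replicates, and the farther NTNG1 site ranked 65 among the 1695.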

How the data were processed

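MEIS binding in hNSC was measured by ChIP-seq in 2 MEIS ChIP samples, grouped by their titles, and 2 Input samples, which have no values of their own here. Per the labels, paired reads of 36 bp were trimmed with cutadapt 1.16, mapped to GRCh37 with Bowtie2 2.3.0, filtered at mapping quality 30 (SAMtools 1.2) and freed of duplicates (Picard 2.15.0). Peaks were called by the authors for each replicate against input with MACS2 (version not given in the sources used here) at a p-value of 0.01 and took reproducible sites by IDR. The mapping filter removes reads from repeats, so sites there can be missed.

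The deposited peak lists hold fold enrichment over input, a linear ratio, with −log10 p and −log10 q values. The deposited list of reproducible sites holds a scaled IDR score and the −log10 p of the merged site, which at 99.53% of intergenic sites equals the lower replicate value. Its 8 columns of per-replicate values were not used, since they carry no replicate names.

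Each site took its replicate values from the strongest peak that overlapped it by at least 1 bp. Positions were compared with GENCODE 44 on GRCh37 (19881 canonical TSS), and all peaks fitted the chromosomes of this reference. Motifs were searched in 500 bp centred on the summit. Fisher's exact tests, two-sided, compared intergenic sites with the other sites (scipy 1.17.1). Benjamini-Hochberg adjustment ran over 6 tests, 13 consensuses or all hexamers with a threshold of 0.05, and intervals cover 95% and counting error only. Genes named were those nearest to the 20 strongest sites, the 10 genes nearest to the most sites, up to 3 genes per list (1 of them is not reported here), 5 loci and the sites at each limit. The position and hexamer steps were tested on simulated data. The members and lists were chosen with earlier results of these data known. Overlap with repeats was not analysed here, since the reference has 0 soft-masked bases.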

Additional observations from a re-analysis of the deposited data

How the results depend on the processing

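Of 70 alternatives to the compared results, 40 kept their direction and call, or stayed within their error. With a lower distance of 50 kb, 26.95% of sites were in the class. The odds ratio of intergenic peaks in the list in replicate 2 became 1.103 with every protein-coding TSS. It became 1.126 when outside peaks had to reach a −log10 p of 5. Both were past the threshold (Fisher's exact test, adjusted p = 0.005268 and 0.001568). Among peaks over 1 kb from a TSS that odds ratio was 1.055 in replicate 2 (Fisher's exact test, adjusted p = 0.197). In replicate 1 it fell from 1.159 to 1.09 among those peaks, still past the threshold (Fisher's exact test, adjusted p = 0.04738). Against desert sites alone, added after seeing the data, the odds ratio of strength was 0.887 and that of TGACAG 1.01. For clustering it was 1.021 with every TSS, 1.089 at an IDR of 0.001 or less, 1.129 within 50 kb and 1.021 with each chain counted once, also added later. For summit agreement it was 1.168 at that IDR, 1.052 against intronic sites and 1.016 within 20 bp. None of these reversals of strength, TGACAG, clustering or summit agreement passed the threshold, and their cause was not tested.

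Consensuses that passed numbered 1 with every TSS, 1 against desert sites and 1 in windows of 200 bp, and by Fisher's exact test 0 at that IDR, 0 against intronic sites and 0 against sites over 1 kb from a TSS, with 0 within strata of GC. The GC box odds ratio was 1.158 against intronic sites, 1.069 against sites over 1 kb away and 3.402 against desert sites, where the reversal passed the threshold (Fisher's exact test, adjusted p = 0.0001948) and was the 1 call. Hexamers that passed numbered 86 with every TSS, 7 in windows of 200 bp and 1 within strata of GC (added later), and 0 of them by Fisher's exact test against intronic sites or sites over 1 kb away, beside 150 and 146 at an unadjusted p under 0.05. With every TSS 53.53% of sites were upstream.

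With the strongest peaks of a single replicate in place of the list, the share in the class was 32.25% to 33.06%. With these peaks, consensuses that passed numbered 1 to 3 and hexamers 24 (without replicate 1) to 128 (without replicate 2). The clustering odds ratio was 0.936 to 1.063 and that of TGACAG 0.906 to 0.929. Occurrences within 50 bp came to 54.3% to 55.51% and the upstream share to 58.07% to 58.46%. Strength was compared only on the sites of the list, with the −log10 p of a single replicate. Its odds ratio was 1.069 with replicate 1 and 1.12 with replicate 2. No paired analysis was possible because Input carries no values here and the ChIP replicates form 1 group. Read depth was not given, so the weakest site detectable is unknown, and 2 replicates limit what can be said of their spread.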

Other observations

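After the sequences at the strongest sites had been read, the 735 intergenic sites without TGACAG were searched for the 5 letters TGACA on either strand. TGACA was centred within 50 bp of the summit at 402 of them (54.69%, 95% interval 51.08 to 58.26). In zones of nearly the same length farther out the share was 20.41% at 100 to 150 bp (17.65 to 23.47) and 19.18% at 150 to 200 bp (16.5 to 22.19). The other reproducible sites without TGACAG gave 51.41%, 18.71% and 17.93% in the same zones. The shorter run was thus concentrated at the summit in both sets, at sites such as those of NR2F2, RGMA and EPHA7 where the full core was not found. The search was chosen after the data were seen and no test was made.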
